A study of Mus musculus with 6 samples.

Results

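Vitamin A genes of the skin were followed in mice whose keratinocytes carry a permanently active form of the transcription factor Nrf2. The 9 genes chosen code for proteins that bind, interconvert, store, import or break down retinoids, and were taken by symbol (Crabp1, Crabp2, Dhrs3, Dhrs9, Rdh10, Rdh11, Cyp26b1, Lrat and Stra6). The array annotation gave 11 probe sets for 8 of them, out of 45101 probe sets in all, and the level of Dhrs9 was not analysed here. Total RNA of back skin came from 3 female K5cre-caNrf2 mice (tg/tg, with the genotype cell of the labels reading tg/g) and 3 female K5cre-wt control mice (tg/wt), all from the same litter, killed on postnatal day 2.5 on a mixed FVB/N and C57BL/6 background. Each mouse gave 1 array, so n counts animals. All 6 mice carry the K5cre label, and the keratin 5 promoter places recombination in basal keratinocytes and the cells that descend from them, hair follicle epithelium included. The treatment cell reads CaNrf2 for the controls as well, and the groups follow the sample titles.

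Skin takes up retinol, in part through the membrane receptor Stra6, and Lrat esterifies it for storage. Rdh10 oxidises retinol to retinal, Dhrs3 and Rdh11 act mainly in the reverse direction, and retinaldehyde dehydrogenases of the Aldh1a family make retinoic acid, the form that binds nuclear receptors. Crabp1 and Crabp2 bind retinoic acid inside the cell, and Cyp26b1 oxidises it for removal. Several of these genes, among them Crabp2, Dhrs3, Lrat, Stra6 and the Cyp26 family, are known to be induced by retinoic acid, which makes them a common readout of retinoid signalling in epidermis and hair follicles.

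None of the 8 measured genes passed the test in either direction, and the same held for the 11 probe sets. Intensities as deposited by the authors were set to log2 and fitted with limma across 18193 genes, 1 probe set per gene, with Benjamini-Hochberg adjustment, and a gene was called at an adjusted p under 0.05. In that fit 3.65% of all genes were called, and in the fit over 34945 probe sets with a single gene symbol 2.24%. Without adjustment, 1 of the 8 genes (Stra6) had p under 0.05, against 20.4% of all genes, and 1 of the 11 probe sets, against 18.7% of all single-symbol probe sets. The median log2 difference, caNrf2 minus control, was -0.06 over the 8 genes and -0.00 over all genes. In size, without sign, the median was 0.08 for the 8 genes and 0.08 for all genes. The count was 0 in limma as fitted here, and 1, again Stra6, with an intensity trend and robust variances, with array weights, or without control replicate 3.

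The genotype and the tissue could be read in the same arrays. Nfe2l2, which codes for Nrf2, averaged 1200 ± 56.4 in caNrf2 skin and 775 ± 49.5 in control skin (intensity, SD, n = 3), and whether its probe set sees the transgene was not determined. The Nrf2 target Nqo1 averaged 1419 ± 99.3 in caNrf2 skin and 67.7 ± 4.36 in control skin. Keratins of the basal layer and of the layers above it, Krt5, Krt14, Krt1 and Krt10, lay between 10923 and 20875 on all 6 arrays. As a gauge of background in female mice, the 13 probe sets of 6 Y-linked genes had group means from 6.46 to 61.6, with both means under 32 in 11 of them. The highest belonged to an Sry probe set of the kind that can bind several transcripts, and without it the range ended at 33.6. By gene, 5 of the Y-linked log2 differences were positive and 1 negative, with a median of 0.10 and 0 called. Over the 13 probe sets the differences ran from -0.11 to 0.39.

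**Figure D1:**
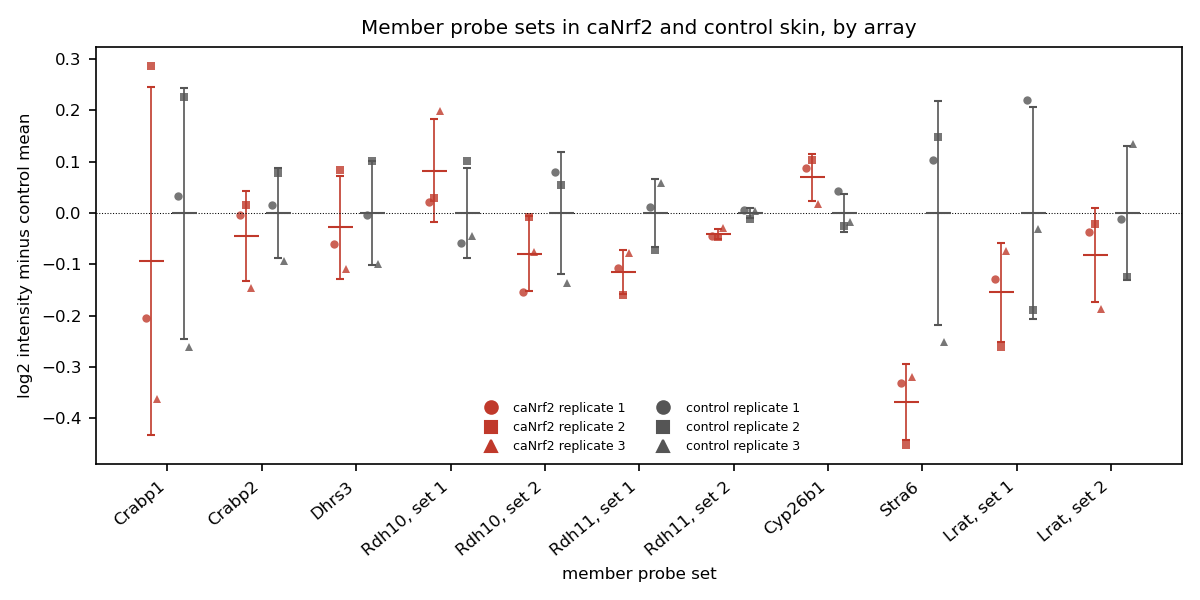
Log2 intensity of each of the 11 member probe sets, less its control mean, with caNrf2 arrays in red on the left and control arrays in grey on the right of each pair. Point shapes give the replicate number, horizontal bars the mean and whiskers the SD (n = 3). Sets 1 and 2 of a gene follow the order of their identifiers. The groups stand apart for Stra6 and both Rdh11 probe sets and overlap for the other 8.

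Crabp1 and Crabp2, the binding proteins, had overlapping groups. Crabp1 read 169, 237 and 151 in the caNrf2 mice, against 199, 227 and 162 in the control mice (replicates 1, 2 and 3). The mice within a group differed more than the groups did. Its log2 difference was -0.09 with a 95% confidence interval from -0.46 to 0.28, the widest among the 8 genes (limma, adjusted p = 0.788). Crabp2, the form of differentiating keratinocytes, read 687, 696 and 623 in caNrf2 skin and 696, 727 and 645 in control skin. Its difference of -0.04 had a narrower interval, from -0.20 to 0.11 (limma, adjusted p = 0.764). Crabp1 is known from dermal papillae and dermal cells, and the 9 dermal papilla markers had summed intensities of 4472 to 4541 in caNrf2 skin and 4891 to 4944 in control skin, with 0 called, 7 negative, 2 positive and a median log2 difference of -0.15. The 8 measured dermal fibroblast markers had sums of 72937 to 74790 in caNrf2 skin and 75323 to 78128 in control skin, with 0 called and a median of -0.05. The part of these cells in the Crabp1 values was not tested.

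Among the enzymes that convert retinol and retinal, Dhrs3 read 423, 468 and 409 in caNrf2 skin and 440, 473 and 411 in control skin. The groups overlapped along nearly their whole range. The log2 difference was -0.03, with an interval from -0.20 to 0.14 (limma, adjusted p = 0.871). Crabp1, Crabp2 and Dhrs3 shared a pattern within the groups, since replicate 2 was the highest and replicate 3 the lowest for each of them in caNrf2 skin and again in control skin. For Crabp1 the spread was the largest, with replicate 2 at 0.38 and replicate 3 at -0.27 from the caNrf2 mean, and 0.23 and -0.26 from the control mean, on the log2 scale. The labels do not say that equal numbers mark paired mice.

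Rdh10, which makes the retinal from which retinoic acid is formed, gave opposite signs in its probe sets. The brighter one read 514, 516 and 581 in caNrf2 skin and 486, 543 and 491 in control skin. The dimmer one read 159, 176 and 168 in caNrf2 skin and 187, 184 and 161 in control skin. The groups overlapped in both, and the log2 differences were 0.08 (interval -0.08 to 0.25; limma gene fit, adjusted p = 0.561) and -0.08 (interval -0.25 to 0.09; limma probe set fit, adjusted p = 0.613). A shared direction was therefore not measured for this gene.

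Rdh11, a retinal reductase that uses NADPH, had groups that stood apart by a small margin in both probe sets. The brighter one read 780, 752 and 796 in caNrf2 skin and 847, 799 and 875 in control skin. The dimmer one read 613, 612 and 620 in caNrf2 skin and 635, 628 and 635 in control skin. Every caNrf2 array lay under every control array in each, and the closest pair of arrays in the brighter set were 796 and 799. The log2 differences were -0.11 (interval -0.25 to 0.02; limma gene fit, adjusted p = 0.323) and -0.04 (interval -0.17 to 0.09; limma probe set fit, adjusted p = 0.74). With Stra6 this made 3 of 11 probe sets with groups apart, where 24.1% of all single-symbol probe sets had groups apart. By gene these were 2 of 8, beside 25.7% of all genes.

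Cyp26b1, the main enzyme of retinoic acid removal among these genes, read 528, 534 and 503 in caNrf2 skin and 512, 488 and 491 in control skin. Replicates 1 and 2 of caNrf2 lay above all control arrays and replicate 3 lay among them. Its log2 difference was 0.07 with an interval from -0.06 to 0.20 (limma, adjusted p = 0.534). Lrat, which esterifies retinol, read 98.9, 99.9 and 89.1 in caNrf2 skin and 101, 93.1 and 111 in control skin with the brighter probe set. The groups overlapped, with a log2 difference of -0.08 and an interval from -0.26 to 0.10 (limma, adjusted p = 0.606). The dimmer Lrat probe set had means of 48.6 ± 3.21 in caNrf2 skin and 54.4 ± 7.88 in control skin (SD, n = 3). These lay within the Y-linked range only through its highest Sry probe set, and above 33.6, where the range ended without that set.

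Stra6 was the member with the smallest p. It read 131, 120 and 132 in caNrf2 skin and 177, 182 and 138 in control skin. All caNrf2 arrays lay under the control arrays, and control replicate 3 stood much nearer to the caNrf2 arrays than to the other control arrays. The means were 128 ± 6.47 in caNrf2 skin and 166 ± 24.0 in control skin (SD, n = 3). The log2 difference of -0.37 ± 0.10 (SE; interval -0.59 to -0.14) did not pass in limma (adjusted p = 0.0868, and 0.111 among probe sets). Of 13 alternatives, 3 passed. Without control replicate 3 the difference was -0.49 and passed (limma, adjusted p = 0.0124). With any other array left out it did not pass (limma, adjusted p from 0.146 to 0.260). With array weights it passed at -0.40 (limma, adjusted p = 0.0393), and with a trend on intensity and robust variances at -0.37 (limma, adjusted p = 0.0376), both in the gene fit and neither in the probe set fit.

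Over the 6 arrays, the 3 genes whose log2 intensities followed Stra6 most closely were Baiap2l1, Krtap1-5 and S100a3. Their Pearson r with Stra6 was 0.996, 0.996 and 0.992, a description over 6 arrays that share the difference between the groups. They were picked for following Stra6, so a shared low control replicate 3 comes with the choice. Calls gained without that array are therefore no separate evidence. Krtap1-5 is a keratin-associated protein of the hair fibre, and S100a3 is a calcium-binding protein of the hair cuticle. Krtap1-5 read 2472, 2244 and 2400 in caNrf2 skin and 3421, 3490 and 2654 in control skin, with control replicate 3 nearest to the caNrf2 arrays. Its log2 difference of -0.42 ± 0.10 did not pass either (SE; limma, adjusted p = 0.0578), but passed in 5 of 13 alternatives, at adjusted p down to 0.00718 without control replicate 3. For S100a3 the log2 difference was -0.29 ± 0.08 (SE; limma, adjusted p = 0.0869), and it passed in 3 of 13 alternatives, at 0.0174 without control replicate 3. Baiap2l1, an adaptor protein of membrane and actin, ranged from 164 to 167 in caNrf2 skin and from 168 to 179 in control skin, a log2 difference of -0.08 ± 0.06 (SE; limma, adjusted p = 0.474).

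Hair matrix and fibre markers were read beside Stra6. Of the 10 measured, 10 had a negative log2 difference, 0 were called, and the median was -0.21. Among all 18193 genes 9354 were negative. Without adjustment, 7 of the 10 had a limma p under 0.05, all negative, where 20.4% of all genes had such a p. Groups stood apart in 7 of the 10, beside 25.7% of all genes. The summed intensity of these markers was 46383 to 47533 in caNrf2 skin and 51651 to 55567 in control skin. Their mean log2 level in control replicate 3 was -0.10 from the control mean. Across the other marker lists that level ran from -0.15 (erythroid) to 0.06 (skeletal muscle), with -0.10 for melanocyte and -0.09 for sebocyte markers. Melanocyte markers, which sit in the same hair bulbs, had 6 of 6 negative differences and a median of -0.21, with 1 called. Sebocyte markers had a median of -0.17, with 1 called higher and 2 lower. Their summed intensity was 8633 to 9241 in caNrf2 skin and 6590 to 7162 in control skin. Medians were also negative for dermal papilla (-0.15), basal keratinocyte (-0.06), dermal fibroblast (-0.05), skeletal muscle (-0.05) and adipocyte markers (-0.04). Skeletal muscle markers had 6 of 6 negative differences too. Differentiating keratinocyte, endothelium and pericyte, leukocyte and erythroid markers had medians of 0.04 each. The part of any of these cell types in the Stra6 values was not tested. In whole skin, fewer cells of a type and less RNA per cell cannot be told apart.

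**Figure D2:**
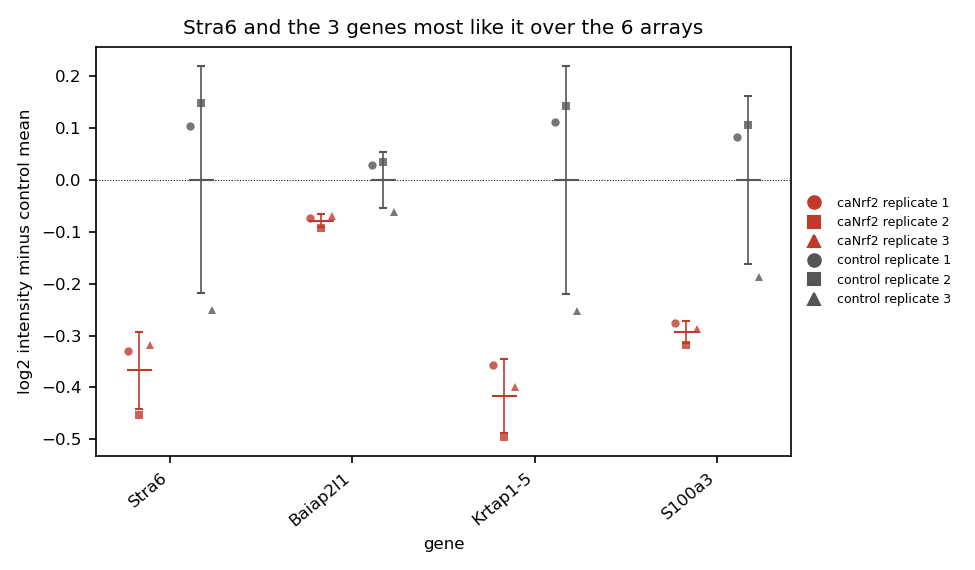
Log2 intensity less the control mean for Stra6 and the 3 genes most like it, with caNrf2 arrays in red on the left and control arrays in grey on the right. Shapes give the replicate, bars the mean and whiskers the SD (n = 3). In each gene control replicate 3 is the lowest control and the nearest to the caNrf2 arrays. The 3 genes were picked for following Stra6 on these same arrays.

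The start regions of these genes were searched for the letters of known elements, in RefSeq windows of 300 bases (GRCm38.p6). Windows were listed for 7 of the 9 genes, 13 in all, since some genes have several starts. Both strands were read for TGACNNNGC, the core of the element bound by Nrf2, for AGGTCA, the site of a single retinoic acid receptor molecule, and for direct repeats of AGGTCA with 5 or 2 free bases between them. The repeats contain the single site, and the single site read on the other strand can share letters with the Nrf2 core. TGACNNNGC was in 0 of the 13 windows, against 12.4% of all 32851 windows. AGGTCA was in 2 of the 13, belonging to Dhrs9 and Rdh11, against 16.3% of all windows. The direct repeats were in none of the 13 and in 0.00913% of all windows each.

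The windows of Stra6 and Rdh11 are shown because these were the members whose groups stood apart. Capitals mark AGGTCA, which Rdh11 holds once, at bases 104 to 109, and Stra6 does not hold. The Stra6 window is the most upstream of 4 starts, chr9:58128838-58129137 on the + strand, and the Rdh11 window is the one of its 2 starts that holds AGGTCA, chr12:79190912-79191211 on the - strand (GRCm38.p6, both printed 5′ to 3′ in the direction of the gene).
Stra6: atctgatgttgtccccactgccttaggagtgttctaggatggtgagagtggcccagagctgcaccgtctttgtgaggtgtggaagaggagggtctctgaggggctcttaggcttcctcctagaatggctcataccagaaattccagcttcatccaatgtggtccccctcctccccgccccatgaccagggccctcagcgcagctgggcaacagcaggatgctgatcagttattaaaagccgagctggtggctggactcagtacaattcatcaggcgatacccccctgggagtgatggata
Rdh11: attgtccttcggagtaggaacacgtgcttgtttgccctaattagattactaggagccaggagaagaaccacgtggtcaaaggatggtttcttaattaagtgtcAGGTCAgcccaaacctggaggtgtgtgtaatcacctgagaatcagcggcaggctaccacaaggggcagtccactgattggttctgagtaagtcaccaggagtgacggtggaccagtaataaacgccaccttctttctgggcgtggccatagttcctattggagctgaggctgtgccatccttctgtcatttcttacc
A match is a run of letters, and no binding was measured here.

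Other genes of retinoid handling did pass the test. From 6 lists by role, holding 92 genes, 79 were measured, of which 7 rose, 2 fell and 70 did not pass. Among those that rose, Hsd17b6 and Aldh1a2 lay within the intensity range of the Y-linked probe sets. In all, 11.4% of the measured list genes were called, beside 3.65% of all genes (2.26% higher and 1.39% lower). The lists were written with earlier results of these arrays known. The share of all genes fell whichever array was left out, to between 1.64% (without control replicate 1) and 2.79% (without control replicate 2). In these fits on fewer arrays, 7 to 10 genes of the lists were called. The median log2 difference over the 79 genes was 0.02. The 9 called genes and the 11 member probe sets are set side by side in the plot of fold changes with their intervals.

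**Figure D3:**
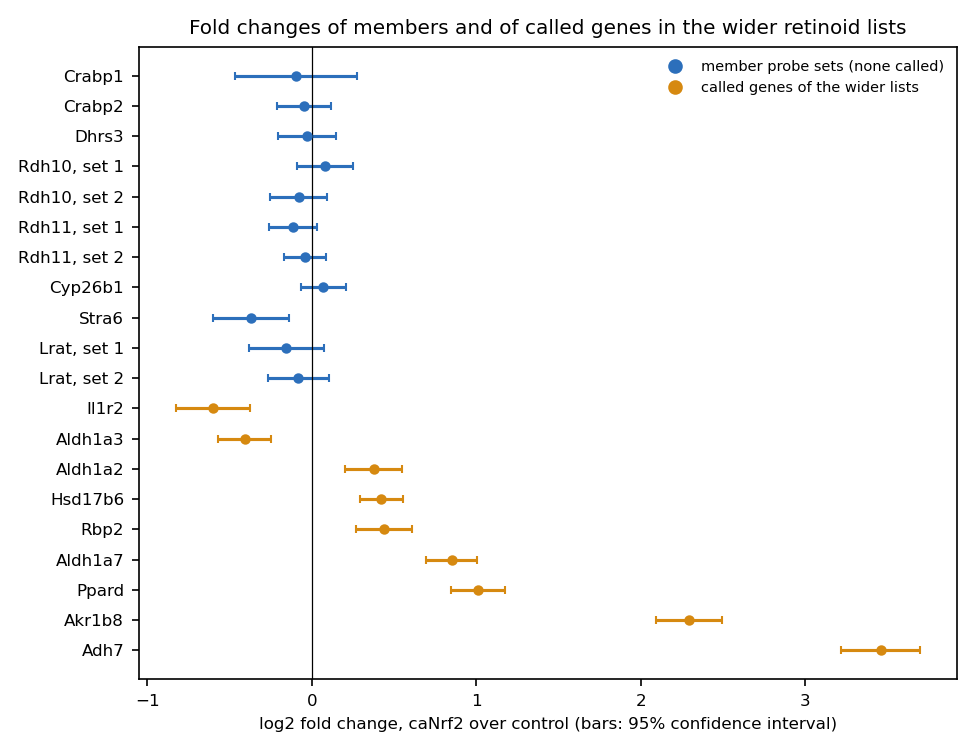
Log2 fold change, caNrf2 over control, with 95% confidence intervals from limma, for the 11 member probe sets (blue, probe set fit) and the 9 called genes of the wider lists (orange, gene fit). The member estimates lie between -0.37 and 0.08, and those of the called genes between -0.60 and 3.46.

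In the list of retinol and retinal conversion, 3 of 20 genes rose and 0 fell, with a median of 0.04. Adh7, an alcohol dehydrogenase that oxidises retinol, read 2076, 1969 and 1588 in caNrf2 skin and 177, 182 and 152 in control skin. Its groups were far apart, and it rose by 3.46 ± 0.11 on the log2 scale (SE; limma, adjusted p = 8.08e-08). Its other probe set gave 4.73, also called. Akr1b8, an aldo-keto reductase, averaged 793 ± 54.7 in caNrf2 skin and 162 ± 18.6 in control skin (SD, n = 3), a log2 fold change of 2.29 ± 0.09. Hsd17b6, a short-chain dehydrogenase of sterols and retinoids, averaged 31.7 ± 0.678 in caNrf2 skin and 23.7 ± 0.832 in control skin, within the range of the Y-linked probe sets, and its other probe set gave -0.03.

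Of the 8 genes listed under retinal oxidation and carotene cleavage, 2 rose and 1 fell, with a median of 0.25. Aldh1a3, a retinaldehyde dehydrogenase, read 229, 230 and 198 in caNrf2 skin and 296, 290 and 284 in control skin. No arrays overlapped, and it fell by 0.41 on the log2 scale (SE 0.07; limma, adjusted p = 0.0148). Its other probe sets gave -0.39 and -0.30, the first called and the second not. Without control replicate 1 the call was lost (limma, adjusted p = 0.064). Aldh1a7, listed as a close relative of the retinaldehyde dehydrogenase Aldh1a1, read 758, 813 and 755 in caNrf2 skin and 462, 423 and 404 in control skin. It rose by 0.85 ± 0.07 on the log2 scale with no overlap (SE; limma, adjusted p = 8.97e-05). Whether Aldh1a7 acts on retinal was not measured here. Aldh1a2, the retinaldehyde dehydrogenase of many embryonic tissues, averaged 23.3 ± 2.11 in caNrf2 skin and 17.9 ± 0.923 in control skin, within the range of the Y-linked probe sets. Its log2 difference of 0.38 was called (limma, adjusted p = 0.0297), but not when any of 5 arrays, all but caNrf2 replicate 1, was left out (adjusted p up to 0.0968).

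For uptake, carriage and ester storage, 1 of 13 genes rose and 0 fell, with a median of 0.06. Rbp2, a cellular retinol-binding protein best known from the intestine, read 357, 411 and 360 in caNrf2 skin and 296, 268 and 266 in control skin. It rose by 0.44 ± 0.08 on the log2 scale (SE; limma, adjusted p = 0.0129), and lost the call without control replicate 3 (limma, adjusted p = 0.0563). Of the 4 other genes measured for retinoic acid breakdown 0 were called. The smallest p was that of Cyp26a1, which averaged 37.3 ± 3.12 in caNrf2 skin and 30.3 ± 1.99 in control skin. The log2 difference was 0.30 ± 0.08 (SE; limma, adjusted p = 0.0704). The means lay on either side of 33.6, where the Y-linked range ended without its highest Sry probe set. Cyp26a1 passed with array weights (limma, adjusted p = 0.0468).

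Among 16 receptors, their partners and carriers, 1 rose and 0 fell, with a median of -0.01. Ppard, a nuclear receptor for fatty acids to which Fabp5 can also carry retinoic acid, read 614, 656 and 709 in caNrf2 skin and 350, 323 and 311 in control skin. The groups were far apart, and the log2 fold change was 1.01 ± 0.07 (SE; limma, adjusted p = 4.58e-05). A dimmer Ppard probe set gave 0.22 and was not called. Fabp5 averaged 16294 ± 1055 in caNrf2 skin and 14954 ± 291 in control skin, which did not pass (limma, adjusted p = 0.32). The receptors of retinoic acid themselves, Rara, Rarb and Rarg, had log2 differences of -0.10, -0.11 and -0.04, and Rxra had 0.02, none of them called.

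Of the 8 called genes with windows, 2 hold TGACNNNGC, Ppard and Aldh1a2, and Adh7 and Akr1b8, which had the largest changes, do not. By window these were 2 of 9, or 22.2%, against 12.4% of all windows. Ppard is shown because it had the larger change of the pair. Capitals mark it at bases 247 to 255 of the window chr17:28232504-28232803 on the + strand (GRCm38.p6).
Ppard: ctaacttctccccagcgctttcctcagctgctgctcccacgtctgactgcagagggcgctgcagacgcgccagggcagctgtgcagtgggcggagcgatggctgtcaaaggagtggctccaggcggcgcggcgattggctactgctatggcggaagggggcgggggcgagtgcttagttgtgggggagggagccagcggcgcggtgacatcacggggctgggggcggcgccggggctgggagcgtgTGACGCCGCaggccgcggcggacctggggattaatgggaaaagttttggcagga

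Targets known to respond to retinoic acid were counted last, leaving out the members. Of 25 listed, 21 were measured, of which 0 rose and 1 fell, with a median log2 difference of -0.07. The gene that fell was Il1r2, a decoy receptor for interleukin-1, at 137 ± 18.5 in caNrf2 skin and 207 ± 15.1 in control skin (SD, n = 3; log2 fold change -0.60 ± 0.10, SE; limma, adjusted p = 0.0116). Without adjustment 7 of the 21 had p under 0.05, 2 of them positive and 5 negative, where 20.4% of all genes had such a p. Rarb and Cyp26a1, given above, are also on this list, and neither was called.

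**Figure D4:**
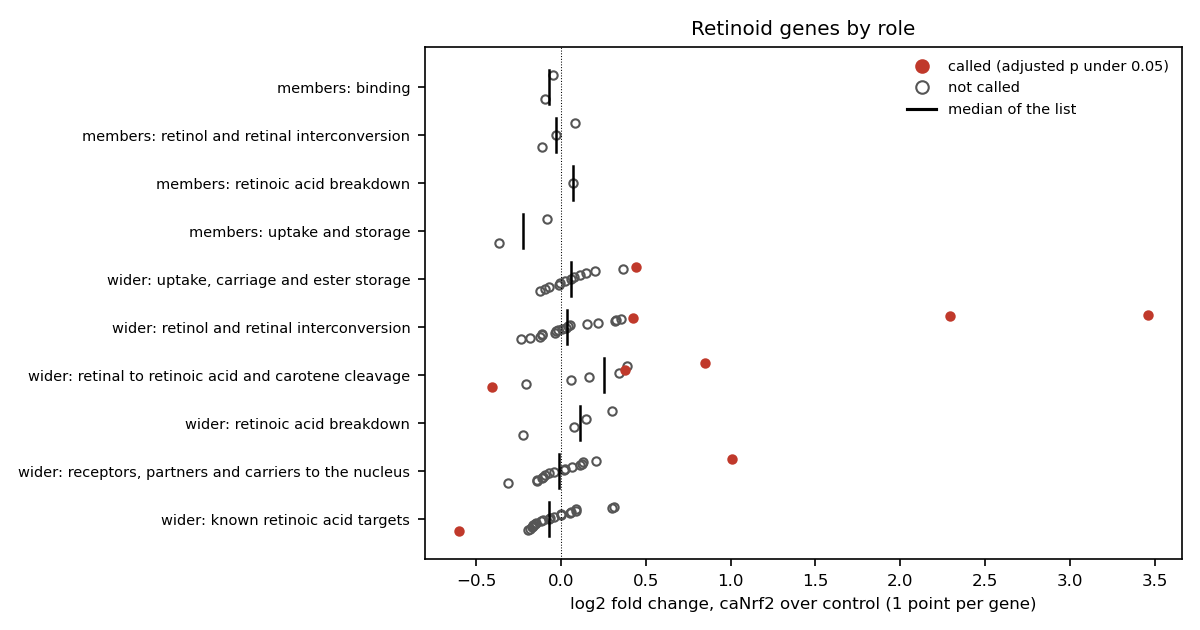
Log2 fold change, caNrf2 over control, of each measured gene in the member groups and in the 6 wider lists, with called genes filled in red and list medians as black lines. Some genes stand on 2 lists. The called genes lie in the lists of conversion, retinal oxidation, storage, receptors and targets, and none lies in the member groups.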

How the data were processed

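Probe set intensities of 6 Affymetrix arrays were deposited by the authors on a linear scale, made with RMA per the submitters' processing notes. The RMA version, and any later scaling, is not given in the sources used here. RMA makes the distributions of all arrays nearly alike, which can hide a shift of most genes in the same direction. The upper quartile was still 325 to 328 on caNrf2 and 334 to 341 on control arrays, and the lower 24.9 to 25.4 and 23.8 to 24.3. Biotinylated cRNA came from 2 ug of total RNA, per the labels' protocols. Of 45101 probe sets, 34945 had a single gene symbol, and 34741 of these were matched by Entrez identifier to RefSeq names (GRCm38.p6). The probe set with the highest mean log2 intensity stood for a gene, with no filter on dim ones. Log2 intensities were fitted with limma 3.58.1 (R 4.3.3, lmFit and eBayes, with no term besides group). The degrees of freedom were 4 residual and 5.52 prior, and p-values were two-sided. Errors are SD over mice or SE of the fit. The number of arrays limits the precision.

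The members and lists were chosen with earlier results of these data known, and no list was given a test of its own. Named were all members, the called genes of each wider list (at most 4, otherwise the gene with the smallest p), the 3 genes most like the member with the smallest p, and markers as lists. Fabp5, Rara, Rarb, Rarg and Rxra were named after their values were seen. Alternatives were log2(intensity + 16), a mean intensity of at least 32, a further quantile normalization, an intensity trend with robust variances, array weights, a replicate block, other probe set choices and leaving out each array.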

Additional observations from a re-analysis of the deposited data

How the results depend on the processing

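The count of called member genes, 0, was 1 with an intensity trend and robust variances and 1 with array weights, and ran from 0 to 1 when an array was left out. The count of called member probe sets, 0, also ran from 0 to 1 when an array was left out. In each case the gene was Stra6. The 9 called genes of the wider lists were 15 with an intensity trend and robust variances and 14 with array weights, while the share of all genes called, 3.65%, was 5.62% and 4.9%. The cause of these shifts was not tested.

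Of the 11 member probe sets, 8 kept their sign in each alternative run for them, 12 or 13 per probe set. Dhrs3 turned to 0.011 with a further quantile normalization and ran from -0.084 to 0.023 with an array left out. Crabp1 ran from -0.28 to 0.041 and Crabp2 from -0.091 to 0.0060 with an array left out. Adding the replicate number of the titles as a replicate block left 0 member genes called (Stra6 -0.37, limma, adjusted p = 0.108). Deviations from the group means correlated over all genes at 0.03, 0.13 and 0.09 for equal numbers, and from -0.15 to 0.07 for unequal numbers. These values do not settle whether equal numbers mark pairs. The main fit had no replicate term because the labels do not say so. With the block Aldh1a2 lost its call (limma, adjusted p = 0.0562), and of the lists 8 of the 9 calls remained and 3 were gained (Aldh1a1, Nrip1 and Sdr16c6, named after their values were seen), for 11 in all. Aldh1a2 lost it too with log2(intensity + 16) and a further quantile normalization, and Hsd17b6 lost it with the mean of its probe sets. Dim probe sets near the Y-linked ones limit what the second Lrat probe set, Cyp26a1, Aldh1a2 and Hsd17b6 can show.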
